A study of Mus musculus with 2 samples.

Results

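The solute carrier (Slc) genes with high counts in the mouse colon were taken as the genes of the wild-type library whose symbol starts with Slc, a family number, a letter and a member number, and whose corrected counts summed to at least 1000 over all cells. They numbered 117 of the 308 genes with such a symbol. They were therefore selected on their measured total, and the total is given below as a description only. The wild-type library held epithelial and non-epithelial cells of the colon of C57BL/6 mice with no treatment named, sorted as EpCAM+ CD45- and EpCAM- CD45- and mixed in equal parts. A second library held mesenchymal cells from the colon of Pdgfra-H2B-eGFP mice, also with no treatment named, in which a nuclear GFP reports the activity of Pdgfra, and it was used here only to look again at the fibroblast genes. Each library pooled 3 female mice with no map from cell to mouse, so no comparison has a replicate, no test across mice was possible and no p-value is given.

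Solute carriers are membrane proteins that move ions, metals, sugars, amino acids, nucleotides and metabolites across cell membranes, by exchange, by facilitated diffusion or by coupling to an ion gradient. In the colon the surface epithelium absorbs sodium, chloride, water and the short-chain fatty acids made by bacteria, the crypt can secrete chloride, and goblet cells build heavily glycosylated mucins from nucleotide sugars that are carried into the Golgi apparatus. Other solute carriers sit in the inner mitochondrial membrane of every cell and exchange ADP, ATP, phosphate and metabolites.

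Of the 117 genes, 114 encode transporters of 35 families. The other 3 have a symbol that fits by its spelling alone, namely Slc7a6os, named for the strand opposite Slc7a6, and Slc9a3r1 and Slc9a3r2, scaffold proteins that bind the sodium/proton exchanger NHE3 and other membrane proteins. Family 25, called mitochondrial carriers here, supplied 21 genes, family 35, called nucleotide-sugar transporters, supplied 16, and family 39, called zinc importers, supplied 11. Groups were assigned by family and not gene by gene, so single members can differ from the name of their group in substrate or membrane. The median total was 1749 corrected counts. The highest total was 50139, for Slc25a3, the mitochondrial phosphate carrier, and 6 genes exceeded 10000. Just inside the limit lay Slc30a6 (1003), Slc43a2 (1010) and Slc22a23 (1018), and just outside lay Slc9a8 (983), Slc17a4 (990) and Slc37a4 (991). Of 40 colon and cell-type transporters known from textbooks, 23 passed the limit and 17 did not. Among the 17 were Slc9a3, the apical sodium/proton exchanger NHE3 (494), Slc15a1, the peptide transporter (454), and Slc18a1, the vesicular monoamine transporter (344). The limit weighed against genes of rare cells. Slc18a1 averaged 2.99 corrected counts per enteroendocrine cell and 0.0673 or less in every other class, and the enteroendocrine class held 87 cells. Conversely, a gene of a large class could pass the limit largely through that class. Slc9a2 totalled 1286 and averaged 1.44 in the 609 enterocytes and 0.402 or less in every other class.

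Cells were grouped by clustering without any Slc gene, and 12 classes carry the comparisons. In the epithelium these were transit-amplifying cells with stem-like cells (765 cells), enterocytes (609), goblet cells (639), enteroendocrine cells (87) and an epithelial cluster led by Krt36, Defb45 and Fut9 that no marker list named (380). In the stroma they were crypt-bottom fibroblasts CBFs1 (1135) and CBFs2 (508), crypt-top fibroblasts CTFs (814), smooth muscle (888), pericytes (118), blood endothelium (591) and glia (78), all named as X-like by marker genes. The 10 epithelial markers summed to means of 101 to 288 in the epithelial classes and 3.49 to 9.81 in the others, with no overlap between them. A level is the corrected count averaged over the cells of a class, and because 3′ counting and gene length differ, a level is compared between classes and not between genes. Median totals per cell ran from 7898 in glia to 10079 in enteroendocrine cells. A gene was called higher or lower at a 2-fold difference with at least 0.05 in the higher class, and each count is read against the 7846 genes of the library with at least 1000 corrected counts. Intervals in brackets are 95% exact binomial intervals of a ratio with the corrected counts read as counts, so they cover counting error only and not differences between mice.

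The solute carriers had their highest level in the epithelium more often than the tested genes as a whole. Of the 117, 91 (77.8%) had their highest class mean in one of the 5 epithelial classes, against 64% of all genes tested. Enterocytes held the highest mean of 35 (29.9%, against 12.5% of all genes) and goblet cells of 31 (26.5%, against 9.42%). Both sets had to reach the same limit, which a gene can reach largely through the class where it is high. These shares and the ranges below describe genes selected in that way. The enterocyte count depends on the clustering. With 15 components in place of 30, 347 cells were named enterocytes and led for 20 genes (17.1%, against 10.9% of all genes). Goblet cells then led for 28 and the untyped cluster for 24. The shares of all genes for goblet cells and the untyped cluster were not computed there, so neither count can be read against a background. Enteroendocrine cells led for 15 (12.8%), below the background of 23.6%, and transit-amplifying cells for 5 (4.27%), below 14.8%. The untyped epithelial cluster led for 5 (background 3.62%). Outside the epithelium the counts were 0 in CBFs1, 2 in CBFs2, 3 in CTFs, 3 in smooth muscle, 6 in pericytes, 5 in blood endothelium and 7 in glia, where the backgrounds were 3.25%, 5.46%, 3.63%, 6.64%, 4.46%, 5.53% and 7.05%. The levels also spread further, since 70 of the 117 (59.8%) differed at least 8-fold between their highest and lowest class, against 39.2% of all genes, and the median log2 range was 3.69 against 2.49.

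**Figure D1:**
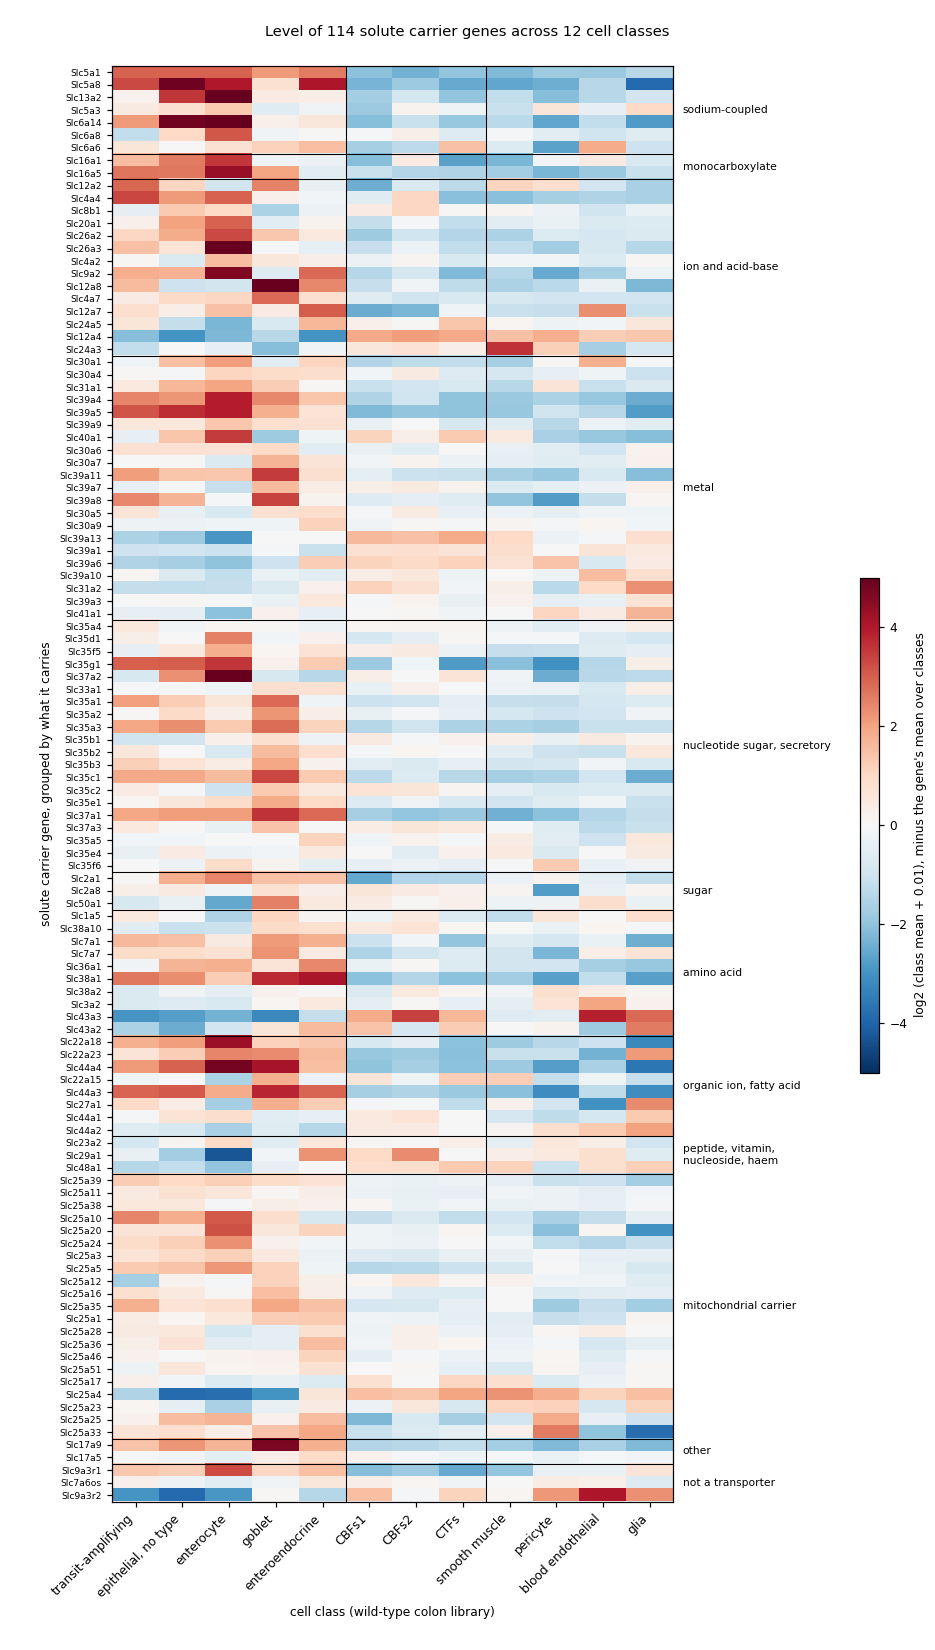
Heat map of 114 of the 117 solute carrier genes (rows, grouped by what they carry) over 12 cell classes of the wild-type library (columns); the colour is log2 of the class mean corrected count plus 0.01, minus the gene's mean over the classes. Of all 117, enterocytes hold the highest mean of 35 (20 when clustered with 15 components) and goblet cells of 31, and the mitochondrial carriers vary less than the sodium-coupled carriers.

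Epithelial cells and fibroblasts were compared first. Of the 117 genes, 58 (49.6%) were higher in the epithelium, against 24.4% of all genes, and 13 (11.1%) were higher in the 2457 fibroblasts, against 19.3%. The median log2 ratio was 0.97 for the solute carriers and 0.20 for all genes tested. Scaling each class to its own total lowered the median of all genes to 0.04 and left 57 and 15 genes called. Of the 7 sodium-coupled carriers, 6 were higher in the epithelium, as were both monocarboxylate carriers, 9 of 16 ion and acid-base carriers, 10 of 20 nucleotide-sugar and secretory-pathway carriers and 10 of 21 mitochondrial carriers. Epithelial markers show how much RNA of other cells a fibroblast profile held. The 10 epithelial markers, keratins and Epcam among them, stood in fibroblasts at 1.52 to 3.0% of their epithelial mean, and 15 of the 58 epithelium-high solute carriers were at or under 3.0% of theirs, so relative to the epithelium their fibroblast level did not exceed that of genes that fibroblasts should lack.

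**Figure D2:**
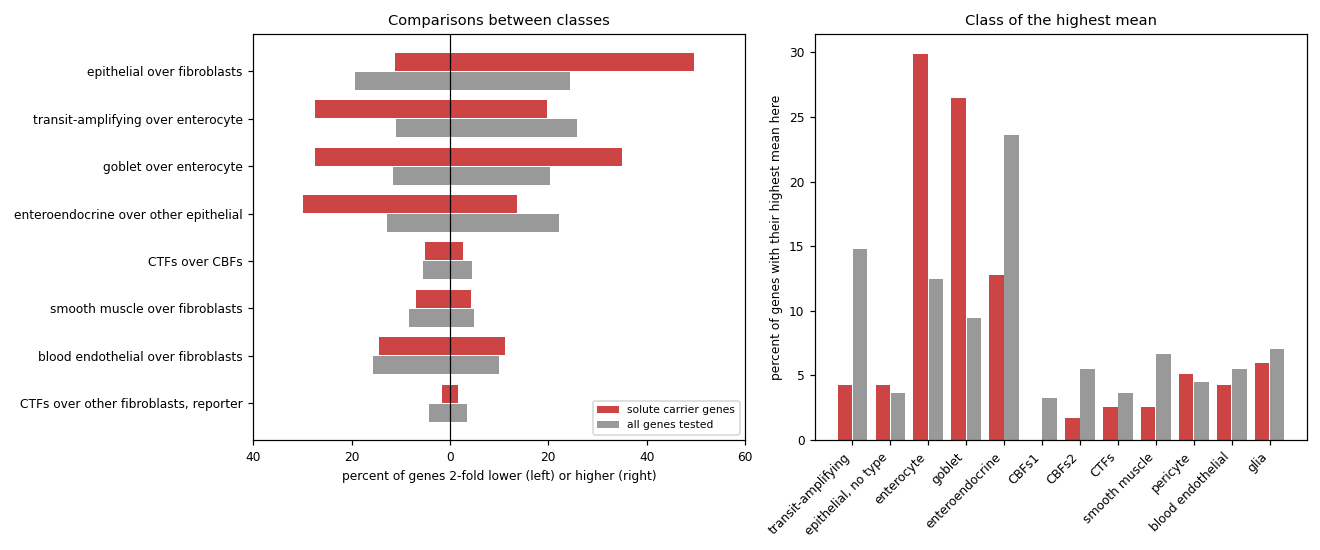
Left, percent of the 117 solute carrier genes (red) and of all genes tested (grey) that were 2-fold lower (bars to the left) or higher (bars to the right) in each comparison; right, percent with their highest class mean in each class. The red bars exceed the grey ones for epithelial over fibroblasts (49.6% against 24.4%) and for enterocytes (29.9% against 12.5%, or 17.1% against 10.9% when clustered with 15 components) and goblet cells (26.5% against 9.42%) as highest class. Other epithelial stands for the mean of the enterocyte, goblet and transit-amplifying class means.

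Enterocytes carried the transporters of the absorptive surface. Slc26a3, the apical chloride/bicarbonate exchanger, averaged 4.65 corrected counts in enterocytes, 0.161 in transit-amplifying cells, 0.0895 in the untyped cluster, 0.0469 in goblet cells and 0.0345 in enteroendocrine cells, and 0.0394 or less in every stromal class. It was above 0 in 82.4% of enterocytes and in 1.32% of CBFs1, where free RNA can give such values (median totals 9697 and 8644). The gene lies on chromosome 12 of GRCm38. Slc13a2, the sodium-coupled citrate and succinate carrier, averaged 2.25 in enterocytes and 0.521 in the untyped cluster, and 0.0485 or less in the other 3 epithelial classes. Slc9a2, the sodium/proton exchanger NHE2, averaged 1.44 in enterocytes, 0.402 in enteroendocrine cells and 0.0266 in goblet cells. Slc9a3r1, the scaffold that holds NHE3 and other proteins at the brush border, averaged 2.63 in enterocytes and 0.557 to 0.782 elsewhere in the epithelium.

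Slc16a1 and Slc6a14 were highest in enterocytes and next highest in the untyped cluster, and Slc5a8 was highest in the untyped cluster. Slc5a8, the sodium-coupled butyrate and lactate carrier, averaged 4.30 in the untyped cluster, 2.36 in enterocytes, 2.41 in enteroendocrine cells, 1.45 in transit-amplifying cells and 0.243 in goblet cells. Slc16a1, the proton-coupled monocarboxylate carrier MCT1, averaged 2.69 in enterocytes and 1.42 in the untyped cluster, against 0.676 in transit-amplifying cells and 0.20 in goblet cells. Slc6a14, a sodium- and chloride-coupled carrier of neutral and cationic amino acids, averaged 6.52 in enterocytes and 4.59 in the untyped cluster, against 0.182 in goblet cells. The 3 genes were low in goblet cells and high in these 2 clusters. Bsg, the chaperone of the monocarboxylate carriers and no solute carrier itself, averaged 9.78 in enterocytes and 3.19 to 7.82 in the other classes.

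Single carriers of phosphate, iron, creatine and glucose were highest in enterocytes too. Slc20a1, a sodium-phosphate cotransporter, averaged 3.47 there and 1.80 in the untyped cluster. Slc6a8, the creatine carrier, averaged 3.31 against 0.753. Slc40a1, the iron exporter ferroportin, averaged 2.39 in enterocytes, and its next levels were 0.555 in the untyped cluster, 0.518 in CTFs and 0.448 in CBFs1. Slc2a1, the glucose carrier GLUT1, averaged 1.73 in enterocytes, 1.10 in the untyped cluster and 0.324 in transit-amplifying cells, whereas the other 2 genes of the sugar group, Slc2a8 and Slc50a1, were highest in goblet cells. Slc5a1, the sodium-glucose cotransporter, stood apart from these, since it ran only from 0.393 in goblet cells to 0.711 in the untyped cluster across the epithelium and was 0.0256 or less in the stroma.

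The transit-amplifying class was mixed. At a finer clustering, 229 of its 765 cells averaged 6.51 of Mki67, a marker of dividing cells. The rest, stem-like cells among them, averaged 0.466 or less in each cluster. Transit-amplifying cells and enterocytes differed in 55 of the 117 genes. Of these, 23 (19.7%) were higher in transit-amplifying cells, against 25.8% of all genes, and 32 (27.4%) were higher in enterocytes, against 11%. With a pseudocount of 0.1 the 23 became 12 (background 15.5%) and the 32 became 28 (background 8.71%). Slc12a2, the basolateral sodium-potassium-chloride cotransporter NKCC1 that loads crypt cells with chloride, averaged 6.48 in transit-amplifying cells and 0.465 in enterocytes, a ratio of 13.9 (12.4 to 15.8). Slc4a4, the sodium-bicarbonate cotransporter NBCe1, was less than 2-fold apart at 1.12 and 0.849. Slc29a1, the equilibrative nucleoside carrier ENT1, was at 3 corrected counts over all enterocytes, so its ratio of 43 is loose (14.5 to 211). In the other direction Slc37a2, a sugar-phosphate carrier of the endoplasmic reticulum, averaged 0.0222 in transit-amplifying cells and 1.88 in enterocytes. Cftr, the chloride channel and no solute carrier, averaged 1.81 in transit-amplifying cells and 0.478 in enterocytes, the same direction as Slc12a2.

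The 609 enterocytes were 2 clusters, 402 cells led by Sptssb and Cyp2c55 and 207 led by Atp12a and Saa1, and solute carriers separated them. Of the 117 genes, 15 were higher in the first cluster (background 9.1%) and 12 in the second (background 4.95%). Slc37a2 averaged 0.0846 in the Cyp2c55 cluster and 5.37 in the Saa1 cluster. Slc36a1, a proton-coupled amino acid carrier of lysosomes, averaged 0.0746 against 1.17. Slc20a1 averaged 1.44 against 7.41, Slc40a1 1.04 against 5.00 and Slc6a8 1.83 against 6.17. These 5 genes were all higher in the Saa1 cluster. Higher in the Cyp2c55 cluster was Slc6a6, the taurine carrier, at 1.19 against 0.159. Slc26a3, at 4.25 and 5.41, Slc9a2, at 1.37 and 1.58, and Slc13a2, at 2.41 and 1.95, differed by less than 2-fold. Haemoglobin and other erythroid RNA summed to a mean of 12.7 in enterocytes, against 0.226 to 1.39 in the rest of the epithelium, and its part in the enterocyte values was not tested. Median totals (9683 and 9720) and mitochondrial shares (12% and 12.9%) were close in the 2 clusters.

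Goblet cells and enterocytes differed in 73 of the 117 genes. Of these, 41 (35%) were higher in goblet cells, against 20.3% of all genes, and 32 (27.4%) were higher in enterocytes, against 11.6%. All 16 genes of family 35 and 4 others formed the group of nucleotide-sugar and secretory-pathway carriers, and 12 of its 20 had their highest mean in goblet cells. Slc35a1, which carries CMP-sialic acid into the Golgi, averaged 4.39 in goblet cells, 2.56 in transit-amplifying cells and 0.924 in enterocytes. Slc35a2, the UDP-galactose carrier, averaged 1.68 in goblet cells and 0.447 in enterocytes. Slc35c1, the GDP-fucose carrier, averaged 1.27 against 0.378. Slc35b2 and Slc35b3, the carriers of the sulphate donor PAPS, averaged 0.826 against 0.154 and 0.811 against 0.264. Carriers of each of these sugar and sulphate donors were higher in goblet cells. Slc35d1, by contrast, which carries UDP-glucuronic acid and UDP-N-acetylgalactosamine, averaged 0.113 in goblet cells and 0.782 in enterocytes.

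Other goblet-high genes carry metals, sugars and nucleotides. Slc12a8, of the family of cation-chloride cotransporters, averaged 3.12 in goblet cells and 0.0148 in enterocytes, a ratio of 211 (111 to 462), with 0.241 in enteroendocrine cells and 0.133 in transit-amplifying cells as its next levels. It was above 0 in 93.0% of goblet cells, in 0.821% of enterocytes and in 1.06% of CBFs1 (median totals 9993, 9697 and 8644). Slc50a1, a sugar carrier of the SWEET family, averaged 4.65 in goblet cells and 0.128 in enterocytes, a ratio of 36.3 (29 to 46.1), and 0.628 to 1.46 in the stromal classes. Slc17a9, which loads vesicles with ATP, averaged 1.22 in goblet cells and 0.203 or less elsewhere. Zinc carriers of the secretory pathway were higher there as well, Slc39a7 of the endoplasmic reticulum at 1.74 against 0.259 and Slc30a7 of the Golgi at 0.660 against 0.115. Slc4a7, the sodium-bicarbonate cotransporter NBCn1, averaged 2.25 in goblet cells and 0.418 to 0.647 elsewhere in the epithelium. The glutamine carrier Slc1a5 averaged 1.38 against 0.217 in enterocytes, and 6 of the 10 amino acid carriers were higher in goblet cells.

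**Figure D3:**
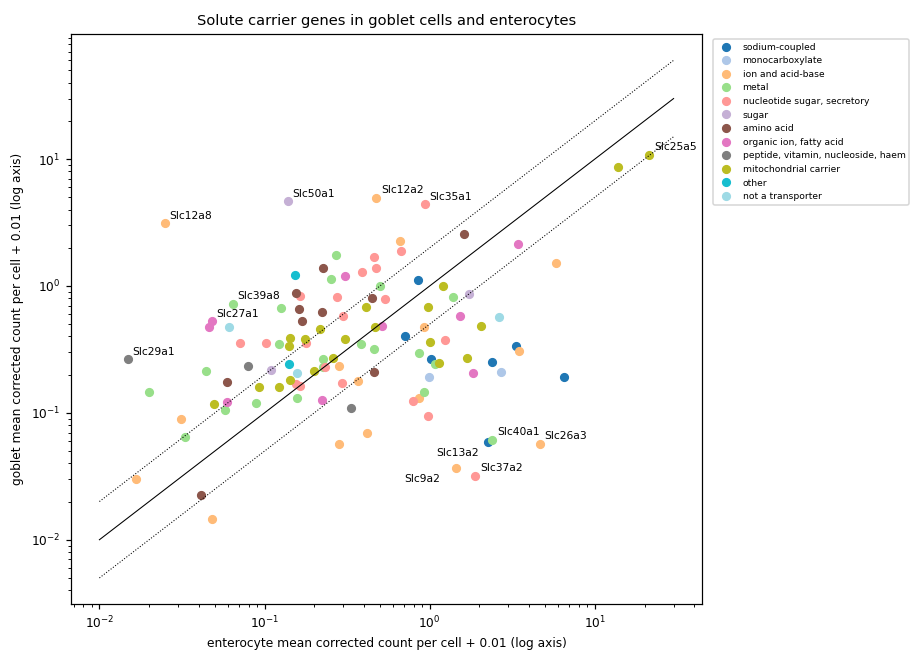
Mean corrected count per cell plus 0.01 of the 117 solute carrier genes in enterocytes (x) and goblet cells (y), both axes logarithmic and coloured by what the gene carries; the solid line is equality and the dotted lines mark 2-fold. Of the 117, 41 lie above and 32 below the 2-fold lines among genes past the minimum of 0.05, with Slc12a8 and Slc50a1 far above and Slc26a3, Slc37a2 and Slc13a2 far below.

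At a finer clustering goblet cells split into 328 cells with a mean Muc2 of 364 and 311 cells with a mean Muc2 of 64.8 and a mean Reg4 of 40.6, the marker of deep crypt secretory cells. Of the 117 genes, 26 were higher in the Muc2-high cells (background 6.88%) and 6 in the Reg4-high cells (background 5.57%). Slc35a1 averaged 6.28 against 2.39, Slc50a1 6.75 against 2.44, Slc12a8 4.42 against 1.75 and Slc17a9 1.90 against 0.495, so these 4 goblet genes were all higher in the Muc2-high cells. The Reg4-high cells were higher in Slc5a8, at 0.408 against 0.0854, and Slc16a5, of the monocarboxylate carrier family, at 0.309 against 0.0579. Slc12a2 was 3.95 and 5.98, less than 2-fold apart. Transit-amplifying cells split into 3 clusters. Slc12a8 averaged 0.389 in the 229 cells with the highest mean Mki67 (6.51) and the highest mean Muc2 (13.8), 0.0269 in 483 cells (Mki67 0.466, Muc2 0.522) and 0 in 53 cells (Mki67 0.0943, Muc2 0.132). The 53 cells also averaged 9.06 of Cyp2c55, against 20.3 and 2.55 in the 2 enterocyte clusters, so part of the class was enterocyte-like in this marker.

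Enteroendocrine cells, the hormone-making cells of the epithelium, were lower in many of these carriers. They were compared with the mean of the enterocyte, goblet and transit-amplifying class means, without the untyped cluster. Against that mean 16 of the 117 were higher (13.7%, against 22.2% of all genes) and 35 were lower (29.9%, against 12.8%). With a pseudocount of 0.1 these were 10 (background 14.2%) and 27 (background 9.56%). Slc26a3, Slc37a2, Slc13a2 and Slc6a14 were among the lower ones. Higher were Slc12a7, the potassium-chloride cotransporter KCC4, at 1.08 against 0.252, Slc29a1 at 1.37 against 0.157, and Slc39a6, a zinc importer, at 0.299 against 0.0381. Slc38a1, a sodium-coupled glutamine carrier, was higher too, at 1.10 against 0.470, but averaged 0.865 in goblet cells alone. Slc25a4, the ADP/ATP carrier of heart and muscle mitochondria, averaged 1.92 in enteroendocrine cells, against 0.223 for that mean of the other classes. With 87 cells these are the least precise of the epithelial means.

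In some families pairs of genes had opposite patterns, and a few such pairs are described here, chosen after their values were seen. Slc25a4 and Slc25a5 both exchange ADP for ATP across the inner mitochondrial membrane. Slc25a4 averaged 3.59 in CBFs1, 3.27 in CBFs2, 4.98 in CTFs, 5.99 in smooth muscle, 4.40 in pericytes, 2.74 in blood endothelium and 3.58 in glia, and 0.0821 in enterocytes, 0.0789 in the untyped cluster, 0.150 in goblet cells, 0.438 in transit-amplifying cells and 1.92 in enteroendocrine cells. Slc25a5 averaged 21.4 in enterocytes, 12.9 in the untyped cluster, 11.8 in transit-amplifying cells and 10.8 in goblet cells, and 1.80 to 4.72 in the stromal classes. In enteroendocrine cells it averaged 4.13, within the stromal range. The 2 genes ran in opposite order, with r of -0.92 between their log2 class means over the 12 classes, which share one library and similar depth. Slc25a5 and Slc25a3 ran together, with r of 0.98. A pseudogene named after Slc25a5, Slc25a5-ps, is annotated and has no row in the table, so reads that match both could have been lost or counted to Slc25a5.

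The bases before the start of 4 genes are shown because they had opposite patterns, the Slc25a4 and Slc25a5 pair for stroma and epithelium, and Slc26a3 and Slc12a8 for enterocytes and goblet cells. Each is the 250 bases upstream of the RefSeq start in GRCm38.p6, written 5′ to 3′ on the strand of the gene, at chr8:46211063-46211312 (minus), chrX:36795347-36795596 (plus), chr12:31437969-31438218 (plus) and chr16:33517078-33517327 (plus), in that order. Capitals mark the letters GGGCGG, the GC box that the factor Sp1 binds, or TATAAA, the TATA box, on either strand.
Slc25a4: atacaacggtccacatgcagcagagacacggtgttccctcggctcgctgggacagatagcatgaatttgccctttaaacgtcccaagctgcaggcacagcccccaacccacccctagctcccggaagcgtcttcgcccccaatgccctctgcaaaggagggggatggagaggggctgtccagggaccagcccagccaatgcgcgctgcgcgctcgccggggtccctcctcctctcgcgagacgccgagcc
Slc25a5: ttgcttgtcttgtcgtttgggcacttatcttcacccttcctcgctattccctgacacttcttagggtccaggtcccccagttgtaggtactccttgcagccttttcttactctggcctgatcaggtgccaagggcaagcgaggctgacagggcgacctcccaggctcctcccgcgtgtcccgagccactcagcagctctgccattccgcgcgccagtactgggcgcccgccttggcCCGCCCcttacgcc
Slc26a3: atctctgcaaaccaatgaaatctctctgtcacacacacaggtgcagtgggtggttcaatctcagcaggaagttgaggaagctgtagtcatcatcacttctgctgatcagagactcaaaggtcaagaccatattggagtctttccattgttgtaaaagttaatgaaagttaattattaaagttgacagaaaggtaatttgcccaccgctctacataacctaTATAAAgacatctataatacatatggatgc
Slc12a8: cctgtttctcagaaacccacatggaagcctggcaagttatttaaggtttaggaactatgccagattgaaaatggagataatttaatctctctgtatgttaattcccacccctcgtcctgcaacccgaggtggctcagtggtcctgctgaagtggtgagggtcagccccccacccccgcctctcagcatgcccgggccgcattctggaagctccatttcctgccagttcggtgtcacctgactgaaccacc
Slc25a4 had 64.8% G and C with 18 CG dinucleotides and Slc25a5 61.6% with 14, so this opposed pair was alike in base composition. Slc26a3 differed from them, with 38.8% and 1 CG dinucleotide, and TATAAA began 30 bases before the start. Slc12a8 lay between, with 53.2% and 6. Over the 300 bases from 250 before to 50 after the start, GGGCGG occurred in 72.6% of the 95 genes of the 117 that have an entry, in 68.0% of the 6162 genes tested that have one and in 35.9% of all 27025 entries. TATAAA occurred in 8.42%, 7.32% and 14.2%. Of 18 mitochondrial carriers 94.4% held GGGCGG and none held TATAAA. Slc25a4 and Slc12a8 held GGGCGG within these 300 bases, though not wholly within the 250 printed above, and are counted as holding it. These matches are descriptions of letters.

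Genes of the family of cation-chloride cotransporters were highest in different classes. Beside Slc12a2 in transit-amplifying and goblet cells (6.48 and 4.94), Slc12a8 in goblet cells and Slc12a7 in enteroendocrine cells, Slc12a4, the potassium-chloride cotransporter KCC1, averaged 0.281 in CBFs1, 0.329 in CBFs2, 0.283 in CTFs and 0.178 to 0.271 in the other stromal classes, and 0.0203 or less in the epithelium. Slc9a3r1 and Slc9a3r2 were split as well. Slc9a3r2 averaged 7.56 in blood endothelium, 2.22 in glia and 2.03 in pericytes and 0.0509 in enterocytes, the class where Slc9a3r1 was highest.

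Some zinc and choline carriers also differed in where they were high. Slc39a4 and Slc39a5, zinc importers of the gut, averaged 0.849 and 1.06 in enterocytes, and 0.0177 or less and 0.0254 or less in the stroma. Slc39a1 averaged 1.62 to 1.86 in the 3 fibroblast classes and 0.488 in enterocytes, and Slc39a13 averaged 0.404 to 0.522 in fibroblasts and 0.00985 in enterocytes. Slc44a4, a choline-like carrier, averaged 3.44 in enterocytes and 2.12 in goblet cells and 0.0305 or less in the stroma, while Slc44a2 averaged 0.718 in glia and 0.0493 in enterocytes. Over all 453 pairs of genes from one family the median r was 0.26, and over all 6786 pairs 0.18, so the opposed pairs are not typical of pairs from one family.

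**Figure D4:**
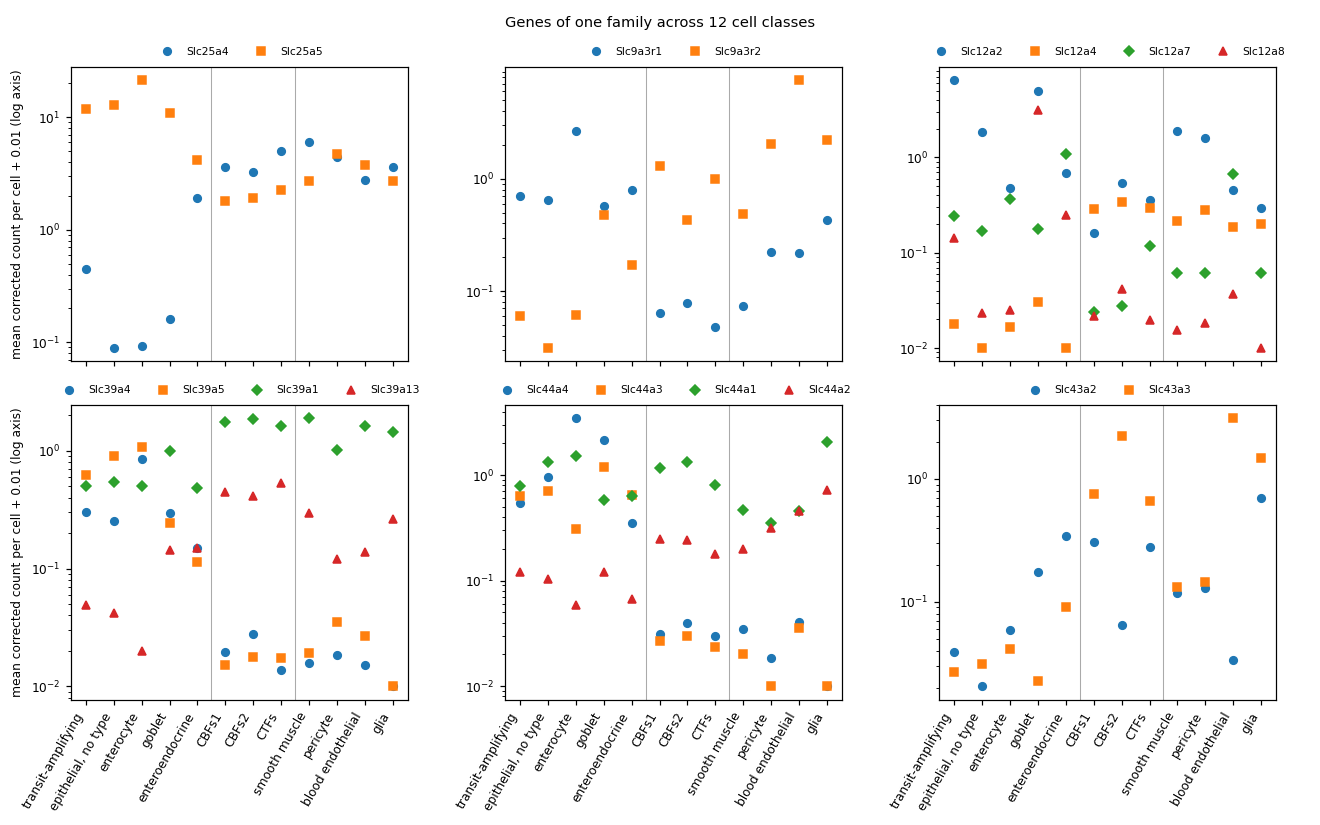
Class mean corrected count per cell plus 0.01 (logarithmic axis) of genes of one family over 12 classes, with grey lines between epithelium, fibroblasts and other stroma. Slc25a5 exceeds 10 in transit-amplifying cells, the untyped cluster, enterocytes and goblet cells, where Slc25a4 is under 0.5, and Slc9a3r2 reaches 7.56 in blood endothelium.

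The mitochondrial carriers and the nucleotide-sugar and secretory-pathway carriers varied less than most other groups, though not less than the 2.49 of all genes tested. Their median log2 ranges were 2.78 over 21 genes and 2.92 over 20, against 5.33 for the 7 sodium-coupled carriers and 5.08 for the 16 ion and acid-base carriers. Slc25a38, the mitochondrial glycine carrier, had a log2 range of 0.91, the smallest of the 117, with means from 0.103 in blood endothelium to 0.203 in transit-amplifying cells and the untyped cluster. Slc35a4 (1.03), Slc39a3 (1.15), Slc7a6os (1.18) and Slc35e4 (1.23) followed, and 22 of the 117 genes (18.8%, against 34.3% of all genes) stayed within 4-fold over the 12 classes. Some mitochondrial carriers were uneven. Slc25a20, which imports acylcarnitines for fatty acid oxidation, averaged 1.68 in enterocytes and 0.263 in goblet cells. Slc25a10, the dicarboxylate carrier, averaged 1.13 in enterocytes, 0.739 in transit-amplifying cells and 0.0690 in enteroendocrine cells. Slc25a33, which carries pyrimidine nucleotides, averaged 0.847 in pericytes and 0.0254 in blood endothelium.

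CTFs and CBFs differed in few solute carriers, as they did in few of all genes tested. Differences between CBFs1 and CBFs2 were not counted. Between CTFs and CBFs 3 of the 117 were higher in CTFs (2.56%, against 4.41% of all genes) and 6 were higher in CBFs (5.13%, against 5.57%), both under the background. With a pseudocount of 0.1, only Slc6a6 was called higher (background 3.01%) and only Slc29a1 lower (background 3.59%). Slc6a6, the taurine carrier, averaged 1.37 in CTFs, 0.147 in CBFs1 and 0.191 in CBFs2, a ratio of 8.56 (7.48 to 9.82). It was not particular to CTFs, with 1.79 in blood endothelium, 1.40 in enteroendocrine cells and 1.10 in goblet cells. Slc12a7 averaged 0.107 in CTFs and 0.0152 in CBFs, and Slc24a5, a calcium exchanger of intracellular membranes, 0.388 and 0.165. CTFs carried more RNA of smooth muscle markers than CBFs1 did (summed means 19.8 and 2.49). Slc6a6 averaged 0.296 in smooth muscle, and the part of this RNA in the CTF values was not tested. Higher in CBFs were Slc29a1, at 0.844 against 0.280 in CTFs, Slc4a4, at 0.111 against 0.0160, Slc16a1, at 0.123 against 0.0270, Slc31a2, Slc27a1 and Slc7a1. The pooled CBF level covers differences between CBFs2 and CBFs1. Slc29a1 averaged 1.47 in CBFs2 and 0.563 in CBFs1, Slc16a1 0.301 and 0.0432, and Slc4a4 0.219 and 0.0626. Slc31a2 went the other way, at 0.317 and 0.427. Slc43a3, a purine nucleobase carrier that was not called between CTFs and CBFs, averaged 2.22 in CBFs2 and 0.744 in CBFs1. In the comparison of epithelium with fibroblasts, Slc43a3 had the lowest ratio of the 117, 0.0222 in epithelial cells and 1.02 in fibroblasts.

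The reporter library, made with another kit and with a median of 3150 corrected counts per cell, held 526 CTFs and 3717 other fibroblasts, of which 852 were CBFs2. Of the 117 genes, 2 were higher in CTFs (background 3.44%) and 2 in the other fibroblasts (background 4.2%). Slc6a6 averaged 0.302 in CTFs and 0.0909 in the others, a ratio of 3.32 (2.74 to 4.03), and Slc29a1 averaged 0.0665 and 0.292, a ratio of 0.228 (0.158 to 0.319). Both had the direction they had in the wild type. All 9 genes called in the wild-type library had the same sign in the reporter library. Of them 2 were called there, and none was called the opposite way. The share of all genes with the same sign was not computed, so the 9 cannot be read against a background. Some of the 9 were low in the reporter library, where single counts weigh. Slc4a4 averaged 0.0019 in CTFs and 0.0153 in the others, and Slc12a7 0.0266 and 0.00995. Slc25a35 (0.0970 and 0.0282) and Slc30a4 (0.0209 and 0.0678) were called in the reporter library alone, at levels where single counts weigh, and the difference between the libraries was not tested. Scaled to class totals, 3 genes were higher and 6 lower in the reporter library, and the share of all genes was not computed for that scaling.

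**Figure D5:**
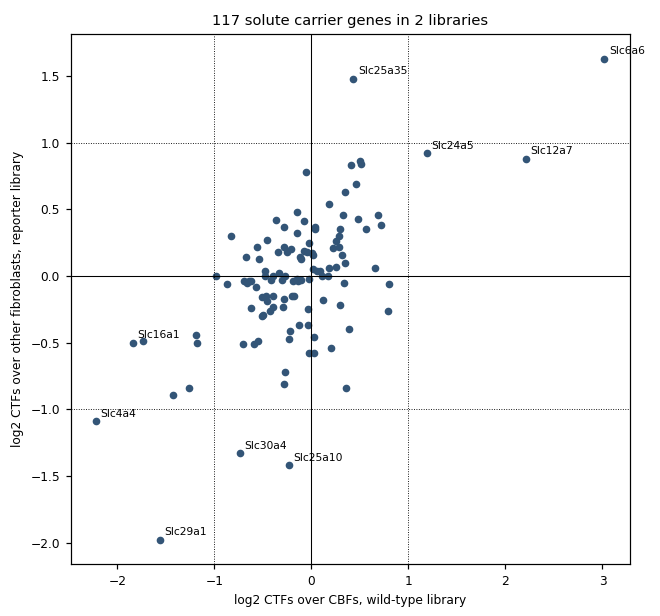
Log2 ratio of class means, CTFs over CBFs in the wild-type library (x) and CTFs over other fibroblasts in the reporter library (y), for the 117 solute carrier genes; dotted lines mark 2-fold. Slc6a6 lies past 2-fold in both at the upper right and Slc29a1 in both at the lower left.

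Smooth muscle, pericytes and endothelium were set beside fibroblasts. Against fibroblasts 5 of the 117 were higher in smooth muscle (4.27%, against 4.97% of all genes) and 8 were lower (6.84%, against 8.26%). With a pseudocount of 0.1 there were 2 in each direction (backgrounds 3.48% and 5.03%). Slc24a3, a potassium-dependent sodium/calcium exchanger, averaged 0.767 in smooth muscle and 0.0830 in fibroblasts, a ratio of 9.24 (7.89 to 10.9), and 0.136 or less in every other class. Slc12a2 averaged 1.87 in smooth muscle and 1.59 in pericytes, against 0.294 in fibroblasts. Both were below its 6.48 in transit-amplifying cells and 4.94 in goblet cells. Slc25a25, a carrier of ATP-Mg and phosphate, averaged 1.10 in pericytes and 0.0895 in fibroblasts. It was nearly as high in enterocytes (0.99), enteroendocrine cells (0.885) and the untyped epithelial cluster (0.874). Slc2a4, the insulin-regulated glucose carrier, lay below the limit with a total of 516 and averaged 0.430 in smooth muscle and 0.424 in pericytes. Fibroblast markers summed to a mean of 72.5 in smooth muscle and 40.3 in pericytes, against 229 in fibroblasts. Smooth muscle markers summed to 68.9 in pericytes and 246 in smooth muscle. The part of RNA from other cells in these values was not tested.

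Against fibroblasts 13 of the 117 genes were higher in blood endothelium (11.1%, against 9.88% of all genes) and 17 were lower (14.5%, against 15.7%), near the background in both directions. With a pseudocount of 0.1 the counts were 8 (background 6.96%) and 5 (background 10.7%). Slc9a3r2 averaged 7.56 against 1.00, a ratio of 7.52 (7.16 to 7.91). Slc3a2, the heavy chain CD98 that pairs with amino acid carriers, averaged 2.97 against 0.596. Slc30a1, the zinc exporter of the plasma membrane, averaged 0.733 against 0.0761, and Slc12a7 0.658 against 0.0456. Slc43a3 averaged 3.11 in endothelium, its highest class. Slc40a1 averaged 0.0474 against 0.431 in fibroblasts. The endothelial cells carried fibroblast marker RNA at a summed mean of 11.7 and epithelial marker RNA at 9.81, and the part of this RNA in their values was not tested.

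The 591 endothelial cells were 493 led by Esm1 and Kdr and 98 led by Selp and Madcam1, adhesion molecules of venules. Of the 117 genes, 3 were higher in the Kdr cluster (background 4.01%) and 22 in the Selp cluster (background 11.5%). The 3 were Slc9a3r2 at 8.68 against 1.91, Slc6a6 at 2.04 against 0.510 and Slc30a1 at 0.830 against 0.245. Higher in the Selp cluster were Slc41a1, a magnesium carrier, at 0.786 against 0.122, Slc2a1 at 0.633 against 0.134 and Slc1a5 at 1.76 against 0.436. The Selp cluster also had more genes per cell, with a median of 2677 against 2002.

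Glia held the highest mean of 7 genes from 78 cells (5.98%, against 7.05% of all genes), under the background. Slc43a2, a carrier of branched-chain amino acids, averaged 0.692, Slc31a2, a copper carrier, 0.949, and Slc27a1, a fatty acid carrier, 0.769, and the next class of each was 0.333 in enteroendocrine cells, 0.427 in CBFs1 and 0.518 in goblet cells. These means rest on the fewest cells of the 12 classes.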

How the data were processed

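The authors aligned reads to mm10 with Cell Ranger, filtered cells and genes, and applied SCTransform (Seurat 3.1, R 3.6.2, per the labels). The score values as deposited are whole numbers, UMI counts corrected to a common depth. The other deposited tables give the natural log of 1 plus each corrected count. Sequenced depth cannot be read from them. Totals per cell ran from 6120 to 16389 in the 7495 wild-type cells and from 2314 to 4432 in the 4409 reporter cells, and 1 cell barcode was shared.

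Cells were clustered on the log values in Seurat 5.3.0 (R 4.3.3) with 3000 variable features less all Slc genes (2933 and 2961 used), 30 components and resolutions of 0.45 and 0.3. Other steps used Python 3.11.15, numpy 2.4.6, scipy 1.17.1, scanpy 1.11.5 and matplotlib 3.10.9. Clusters were named from 22 marker lists. The genes and lists were chosen with earlier results of these data known. The naming limits (median log2 fold of 2, at least 3 markers and 60% of a list, in 10% of cells), the merging of stem-like with transit-amplifying and of deep crypt secretory with goblet cells, the reporter denominator of all other fibroblasts, which replaced the planned CBFs, and the finer goblet, enterocyte, endothelial and transit-amplifying splits were set after the clusters were seen. In the wild-type library 781 cells stayed unnamed, among them a cluster of 103 cells in which the pericyte list (7 of 7 markers) and the blood endothelial list (8 of 8) both passed. Calls and log2 ratios used a pseudocount of 0.01, while linear ratios printed with an interval are plain quotients of the class means. The calls were tried on simulated counts with planted 4-fold changes and no added spread between cells or mice. That trial cannot speak for calls near 2-fold. With 1 library per condition only ratios were computed. The genes named are the 4 leading each class, the 5 with the largest ratio each way in each comparison, textbook transporters, those at the limit and the 5 with the smallest range. A few others of the same family or pathway, some outside the 117, and genes that differed within classes were named after their values were seen. Scrublet marked 7 wild-type (0.0934%) and 5 reporter cells (0.113%), so few that it cannot be taken to have worked, and doublets were kept. Coordinates are GENCODE M21 (GRCm38), and sequences are RefSeq's, matched by symbol for 95 of the 117 genes. Of the 117, 3 overlap a coding gene on the same strand. Of the 117, 3 are counted but not reported here by name, and are left out of the heat map.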

Additional observations from a re-analysis of the deposited data

Results flagged for a closer look

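These values lie in cells that no comparison above used. The 42 lymphatic endothelial-like cells averaged 3.76 corrected counts of Slc9a3r2, against 1.31 over the means of the 12 classes and 7.56 in blood endothelium, its highest class, and 81.0% of them were above 0. The 40 immune-like cells averaged 4.65 of Slc3a2, against 0.888 and at most 2.97 in a single class. The 20 cells like interstitial cells of Cajal averaged 3.25 of Slc4a4, against 0.254 and at most 1.12 in a single class, with 18 of the 20 above 0. In the reporter library, 52 epithelial cells that passed the GFP sort averaged 0.596 of Slc5a8, against 0.000707 in its fibroblasts, and 28.8% were above 0. Free RNA can add to these values, and its part was not tested.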

How the results depend on the processing

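No paired analysis was possible because each condition is 1 library, and for the same reason no replicate could be left out. Of 177 counts under alternatives, 159 stayed within 1.5 times. With a pseudocount of 0.1 the genes higher in transit-amplifying cells than in enterocytes fell to 12, those higher in enteroendocrine cells to 10, CTFs over CBFs to 1 and 1, smooth muscle to 2 and 2, blood endothelium to 8 and 5, and the reporter comparison to 1 and 1, since a larger pseudocount shrinks ratios of low genes. Back-transformed means of the log values left 5 lower in smooth muscle and 1 lower in reporter CTFs. In the reporter library 6 were lower per 10000 corrected counts and 4 without a floor on the mean. With only CBFs2-like cells as the denominator, an alternative chosen after seeing the data, 7 and 5 were higher and lower. Shares of all genes were not computed for these reporter settings. A limit of 2000 keeps 51 genes. With 15 principal components enterocytes led for 20 genes in place of 35, and the cause was not tested. Of 810 ratios of single genes, 122 moved beyond their counting interval and 1 reversed, Slc4a4 in smooth muscle over fibroblasts, 0.03 in place of -1.79 on the log2 scale with 15 components. The limits are the single libraries, the 78 and 87 cells of glia and enteroendocrine cells, and corrected rather than sequenced counts.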
